A study of Mus musculus with 12 samples.

Results

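RAW264.7, an established line of mouse macrophages, was given CpG DNA in the presence of gefitinib, and these cells were compared with cells that had received gefitinib without CpG. The comparison holds 6 of the 12 Illumina bead arrays of the series, 3 labelled CpG Gf and 3 labelled Gf, and it was chosen by these labels alone. The cells with both agents were pretreated with gefitinib at 10 µM for 1 h and then given CpG at 10 µg/ml for 6 h. The cells with gefitinib alone had the same drug at 10 µM and no CpG, and the labels do not state how long they were kept after pretreatment. The other 6 arrays, 3 of CpG alone and 3 of untreated cells, served to define which genes CpG changes when no drug is present. All cells were cultured in DMEM with serum, each array is a separate biological replicate per the labels, and 1 line at 1 dose and 1 time was studied.

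CpG DNA mimics bacterial DNA and is sensed by the endosomal receptor TLR9. Through the adaptor MyD88 the receptor activates NF-kB, MAP kinases and interferon regulatory factors, and macrophages then transcribe cytokine, chemokine and antiviral genes. Gefitinib blocks the tyrosine kinase of the EGF receptor and is used against lung cancer. The 4 probes of Egfr itself were detected on 0 of the 12 arrays, that is, their detection p, which ranks a probe among negative controls, was never under 0.05. Myd88 was detected on every array. Tlr9 itself was not among the 34 Toll-like receptor pathway genes measured here, so its level is not described.

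The promoters of 3 genes induced by CpG alone are shown as examples that hold a match to an NF-kB motif. Cxcl2 encodes a neutrophil attractant, Cxcl10 an interferon-inducible attractant of T cells, and Nfkbia the inhibitor IkB alpha, by which NF-kB limits itself. Each window runs from 250 bases before to 50 bases after the RefSeq gene start in GRCm38.p6, on the gene's strand, and capitals mark matches to a form of that motif, GGGA and TTCC with any 2 bases between them, searched on both strands. Cxcl2 has 2 matches, which overlap.
Cxcl2 chr5:90903649-90903948 (+ strand): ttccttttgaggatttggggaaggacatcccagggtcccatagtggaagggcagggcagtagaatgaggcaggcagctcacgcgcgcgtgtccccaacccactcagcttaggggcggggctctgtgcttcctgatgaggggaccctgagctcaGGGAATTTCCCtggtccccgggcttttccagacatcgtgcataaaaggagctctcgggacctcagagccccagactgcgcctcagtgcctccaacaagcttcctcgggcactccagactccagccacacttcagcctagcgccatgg
Cxcl10 chr5:92348840-92349139 (- strand): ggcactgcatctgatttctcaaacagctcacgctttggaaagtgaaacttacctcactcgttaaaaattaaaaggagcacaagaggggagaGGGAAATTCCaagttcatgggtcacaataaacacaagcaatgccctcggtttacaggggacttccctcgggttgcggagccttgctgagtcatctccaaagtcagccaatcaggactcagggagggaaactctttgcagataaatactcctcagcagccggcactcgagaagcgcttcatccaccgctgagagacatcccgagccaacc
Nfkbia chr12:55492598-55492897 (- strand): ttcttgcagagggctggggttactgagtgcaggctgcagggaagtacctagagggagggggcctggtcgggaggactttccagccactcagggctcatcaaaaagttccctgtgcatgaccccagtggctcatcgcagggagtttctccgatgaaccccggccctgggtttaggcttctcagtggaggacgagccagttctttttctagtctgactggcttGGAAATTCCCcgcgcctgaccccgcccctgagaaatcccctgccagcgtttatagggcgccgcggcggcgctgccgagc
Over all RefSeq promoter windows of this length, 482 of 32851 (1.47%) held a match. Among genes tested here it was 117 of the 6672 that had a window (1.75%), among genes induced by CpG alone 13 of 215 (6.05%), and among genes lowered by CpG alone 0 of 91. These shares are a description of letters in the windows.

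With gefitinib present, no gene passed the test between cells given CpG and cells not given it. Of 8101 genes tested with limma, 0 passed a Benjamini-Hochberg adjusted p of 0.05 in either direction (0%), and the lowest adjusted p was 1.00. At an unadjusted p under 0.05 there were 99 genes higher (1.22%) and 153 lower (1.89%) with CpG and gefitinib than with gefitinib alone, together 3.11% of those tested. The log2 differences ran from -0.72 to 0.65, with a median of 0.00 and quartiles of -0.09 and 0.09, and 0 genes reached 1 log2 unit, a 2-fold difference. On the same platform and in the same fit, CpG without the drug changed 2054 genes (25.4%), 813 upward and 1241 downward. Arrays of the 2 gefitinib groups lay 0.257 log2 units apart (root mean square over genes, 9 pairs), against 0.261 among the arrays with both agents and 0.259 among those of gefitinib alone. Pairs within a group always differ in replicate number. Between the groups, the 6 pairs of different number lay 0.269 apart, slightly more than arrays within a group, and the 3 of the same number 0.234. No measured transcript passed a test that would mark the arrays labelled CpG Gf as having received CpG, so that exposure rests on the labels.

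The precision of 3 arrays against 3 sets what could have been missed. The median standard error of a difference was 0.14 log2 units, and the 95% interval reached a median of 0.30 to either side. The interval lay wholly within 1 log2 unit of 0 for 8075 genes (99.7%) and within 0.5 for 5888 (72.7%). A single changed gene with the median error would have needed a difference of 1.01 log2 units, or 2.02-fold, to pass the threshold on its own. Genes with a smaller error, or differences shared by many genes, could pass at smaller sizes.

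Tnf, which encodes tumour necrosis factor, had the smallest unadjusted p among the listed cytokine genes. Its normalized log2 signal was 8.68, 8.10 and 8.50 with CpG and gefitinib, against 8.01, 7.90 and 8.11 with gefitinib alone, and the groups overlapped at 1 pair of values. With CpG alone it was 12.62, 12.98 and 12.77, and in untreated cells 8.61, 8.54 and 8.70. The difference under gefitinib was 0.42 ± 0.15 log2 units (± SE, here and below, from 3 arrays in each group), or 1.34-fold with a 95% interval of 1.08 to 1.66, at an unadjusted p of 0.0127 by limma that did not pass after adjustment. CpG without gefitinib raised Tnf 18.0-fold. On the log2 scale the difference under the drug was 10.1% of that response, with an interval of 2.54% to 17.6%.

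Genes of the NF-kB feedback loop gave values of the same order. Nfkbia had 9.02, 8.40 and 8.71 with both agents, against 8.71, 8.06 and 8.26 with gefitinib alone. The groups overlapped, although each array with CpG lay above its same-numbered partner. The difference was 0.36 ± 0.19 (95% interval -0.04 to 0.77) in the fit that does not use the replicate numbers. Tnfaip3, which encodes the deubiquitinase A20, had 5.34, 4.83 and 5.10 with both agents, against 4.48, 4.49 and 4.81 with gefitinib alone. These groups did not overlap, which held for 348 genes in the higher direction (4.30%) and 458 in the lower (5.65%). Tnfaip3 was detected on 2 of 3 arrays with both agents and on 0 of 3 with gefitinib alone, so its level there is only a bound. With the arrays of gefitinib alone set no lower than their lowest detected signal, the group means differed by 1.13-fold. That figure carries no interval. The fit gave an unadjusted p of 0.0574 by limma, and its 95% interval of -0.02 to 1.02 log2 units included 0. Not all feedback genes showed this sign. Nfkbiz, an atypical IkB protein that CpG alone raised 29.0-fold, had 7.20, 7.15 and 7.20 with both agents, against 7.50, 7.42 and 7.07 with gefitinib alone (-0.14 ± 0.15). Socs3, a brake on cytokine receptor signalling raised 25.8-fold by CpG alone, gave -0.14 ± 0.17.

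Chemokine genes with a clear basal signal had close values in both gefitinib groups. Ccl3, which encodes a monocyte attractant, had 10.83, 10.24 and 10.25 with both agents, against 10.68, 10.27 and 10.25 with gefitinib alone. The difference was 0.04 ± 0.16, or 1.03-fold (interval 0.805 to 1.32), beside a 25.6-fold increase with CpG alone. Its neighbour Ccl4 had 11.19, 10.77 and 11.27 with both agents, against 11.01, 10.95 and 10.80 with gefitinib alone, a difference of 0.16 ± 0.15. In both genes the groups overlapped. Il1rn, the interleukin-1 antagonist gene, gave 0.14 ± 0.18 and the acute-phase gene Saa3 0.04 ± 0.25, and the upper ends of their intervals came to 10.7% and 10.5% of the CpG response without the drug. Hcar2, the niacin receptor gene, gave 0.23 ± 0.25.

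**Figure D1:**
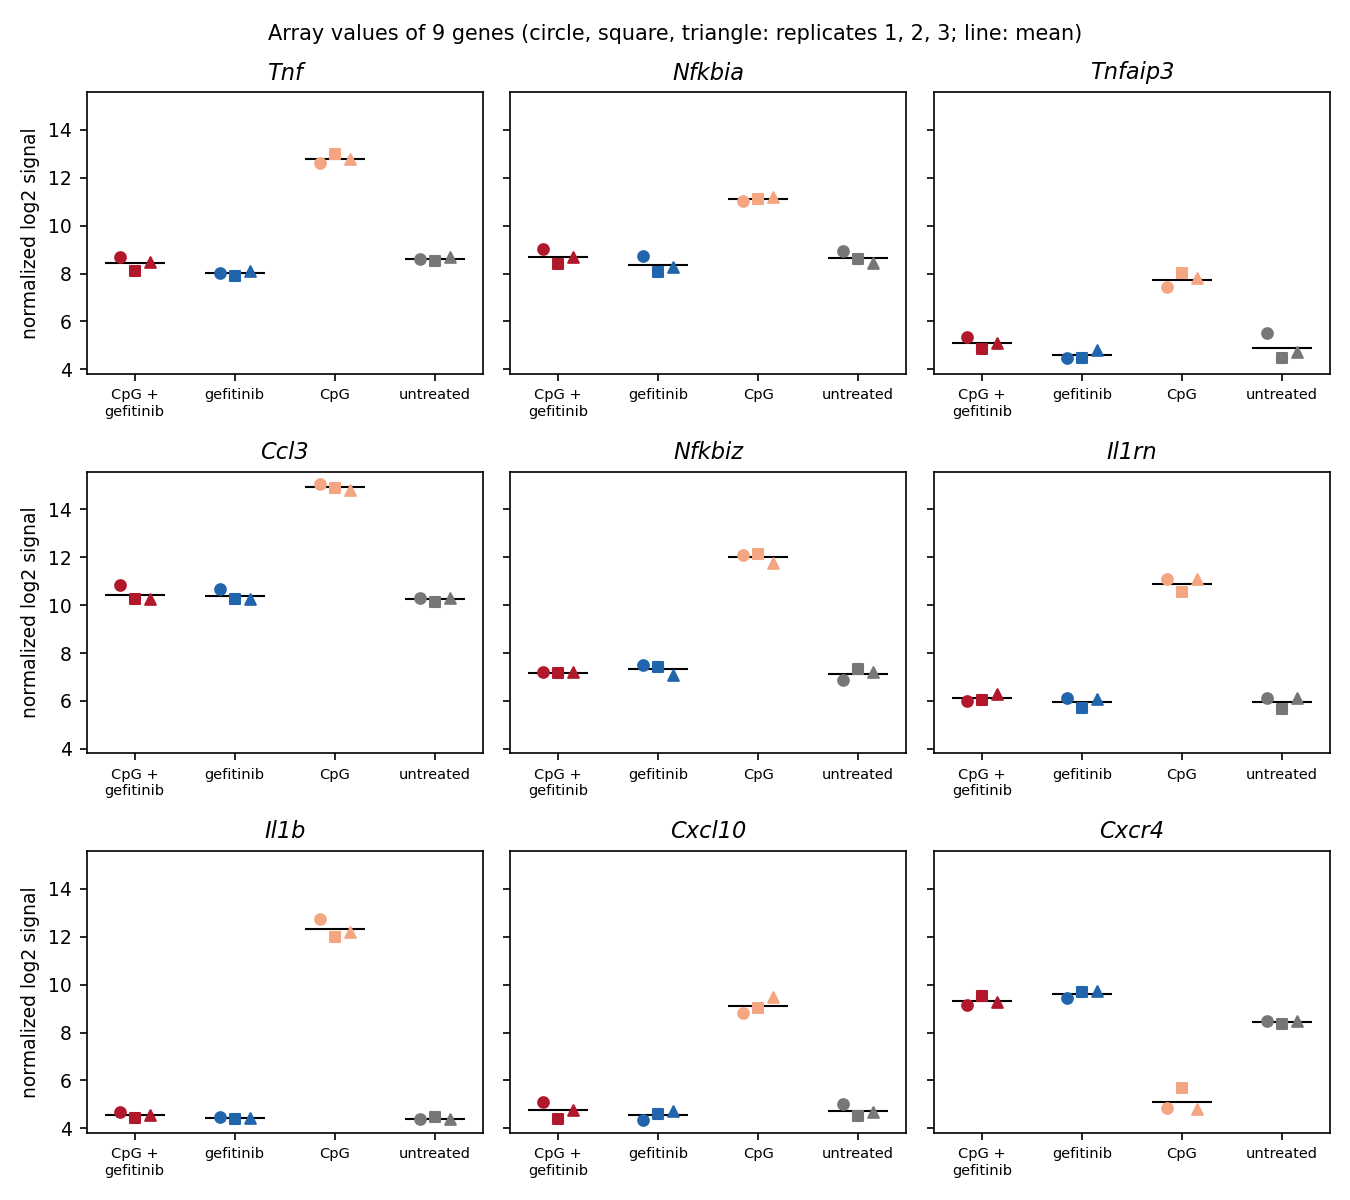
Normalized log2 signal (y axis) of 9 genes on each of the 12 arrays, by group, with replicate numbers as symbols and group means as lines. The arrays with CpG and gefitinib lie near those of gefitinib alone, such as 10.83, 10.24 and 10.25 against 10.68, 10.27 and 10.25 for Ccl3, below CpG alone in the 8 induced genes and above it in Cxcr4.

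The genes that CpG switches on from nothing were not detected in either gefitinib group. Il1b, the gene of interleukin-1 beta, had deposited bead signals of 124.3, 116.7 and 108.7 with both agents, against 120.8, 98.9 and 104.4 with gefitinib alone, and of 8694.5, 4258.7 and 4580.4 with CpG alone. Cxcl2 had 118.4, 116.9 and 111.4 with both agents, against 123.2, 102.2 and 97.9 with gefitinib alone. Neither probe stood above the negative controls on any of the 6 arrays, so no fold can be given. The cytokine gene Il6, the interferon beta gene Ifnb1, the cyclooxygenase gene Ptgs2 and the interferon regulatory factor gene Irf7 were also detected on 0 of these 6 arrays, as were the chemokine gene Ccl7, the growth factor gene Csf3 and Phlda1, a feedback gene downstream of MAP kinases. In all, 54 CpG-induced genes were undetected on all 6 arrays. The filter admits a gene with detection on 3 of the 12 arrays, so such genes entered through the other arrays, and their detection on all 3 arrays of CpG alone, with means of 5.40 to 12.31 log2 units, follows from that choice. The lowest detected signal on each of the 6 gefitinib arrays was between 4.87 and 4.97. Nos2, the inducible nitric oxide synthase gene, and the immediate early gene Egr1 were not tested, and their probes were detected on 0 of the 6 arrays. Cxcl10 was detected on 1 array with both agents and on 0 of gefitinib alone, and no lower bound above 1-fold could be set. Ccl2, a monocyte attractant gene, was detected on 1 array of each group (0.10 ± 0.23).

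CpG alone induced 268 genes (3.31%) at least 2-fold past the threshold and lowered 118 (1.46%). These arrays are not shared with the gefitinib comparison, apart from the common normalization and the common estimate of spread. The detection filter over 12 arrays let in genes seen on the CpG arrays alone, so the 268 are not all genes that CpG could induce. Of them, 186 were detected on all 3 arrays of at least 1 gefitinib group and can show a remaining response. Their median difference under gefitinib was 0.04 log2 units, beside 0.00 over all genes, and 111 of the 186 lay above 0, beside 49.5% of all genes. As a share of the log2 response without the drug, the median was 1.72%, with quartiles of -3.63% and 8.78% and a range from -25.8% to 53.0%. At an unadjusted p under 0.05, 7 were higher and 6 lower, beside 1.22% and 1.89% of all genes. Groups that did not overlap were found for 12 higher and 9 lower, beside 4.30% and 5.65% of all genes.

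Genes were also grouped by the size of the response without the drug. Among the 132 measured genes that CpG alone raised by 1 to 2 log2 units the median difference under gefitinib was 0.02, and it was 0.05 for the 36 genes raised by 2 to 3 units. The 8 genes raised by 3 to 4 units gave 0.07, and the 10 raised by more than 4 gave 0.07. As shares of the response these medians were 1.62%, 2.11%, 2.33% and 1.61%. Shares on a log2 scale with a background offset of 16 are compressed for dim genes.

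The intervals show how much of the CpG response the data leave room for. The upper end of the 95% interval, set over the point estimate of the response without the drug, was under 50% of that response for 177 of the 186 genes, under 25% for 116 and under 10% for 31. Its median was 21.1%. For the other 9 the upper end was 50% or more. Cth, which encodes the transsulfuration enzyme cystathionine gamma-lyase, had the highest, at 84.6%, and was followed by Spryd7 (65.5%), the haem oxygenase gene Hmox1 (62.2%), the MAP kinase phosphatase gene Dusp1 (59.2%) and the lymphotoxin beta gene Ltb (57.8%). CpG alone had raised Cth only 2.06-fold, but Cth was detected on 0 of 3 untreated arrays and on 1 of 3 of gefitinib alone. Its response and its share are therefore limited by the floor. Spryd7 and Hmox1 were named after their values were seen. The intervals are those of single genes and do not cover all genes at once.

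**Figure D2:**
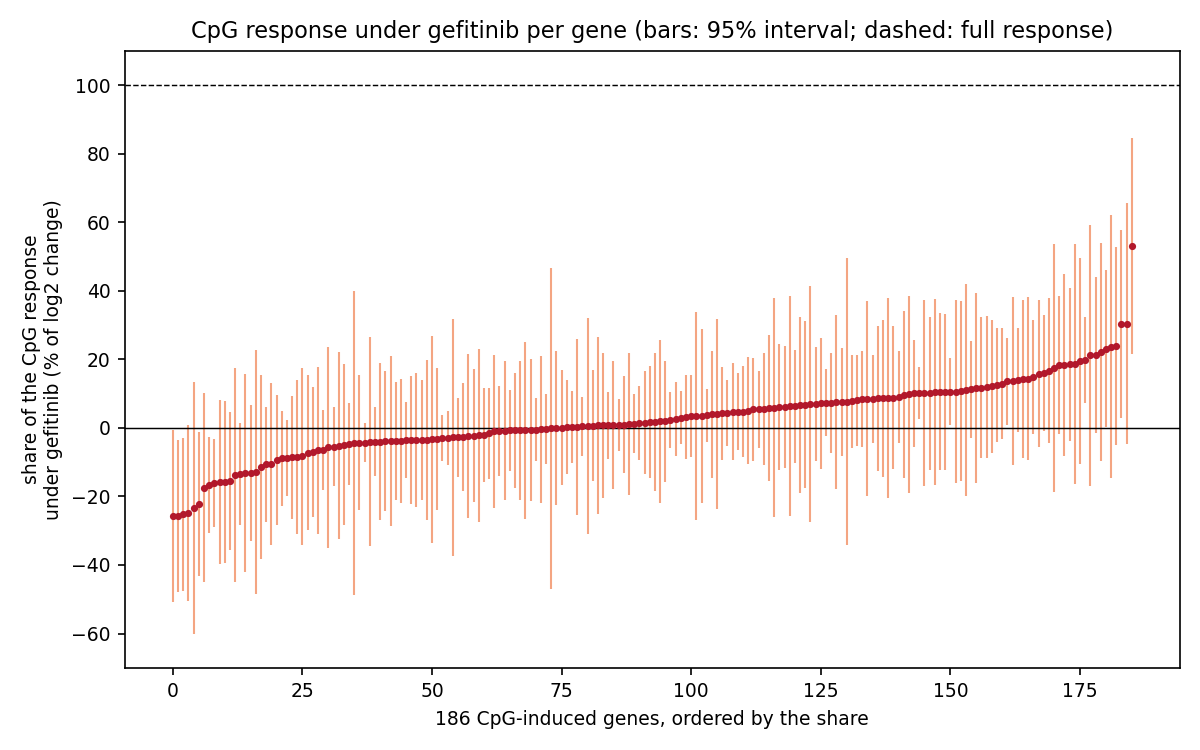
Share of the CpG response present under gefitinib (y axis, percent of the log2 change with CpG alone) for the 186 CpG-induced genes detected in a gefitinib group, ordered by the share. Points are estimates and bars 95% intervals of the difference under gefitinib, the dashed line marks a full response, and the points range from -25.8% to 53.0% around a median of 1.72%.

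The difference between the CpG effect with and without gefitinib was tested as an interaction in the same fit. It passed the threshold for 1000 genes (12.3%), 514 above 0 (6.34%) and 486 below (6.00%). The CpG effect without the drug enters both this test and the choice of the induced genes, so their count supports nothing by itself: it was passed by 263 of the 268 induced and 110 of the 118 lowered genes. Of the 5 induced genes that did not pass, Cth had an interaction of -0.49 (adjusted p = 0.177 by limma) and Dusp1 one of -0.82 (adjusted p = 0.0570). The other 3, named after their values were seen, were Hmox1, Spryd7 and Trem1, a receptor gene that amplifies myeloid activation. For these a CpG effect of the same size with and without the drug was not told apart at the threshold, which does not show that the effects were alike.

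**Figure D3:**
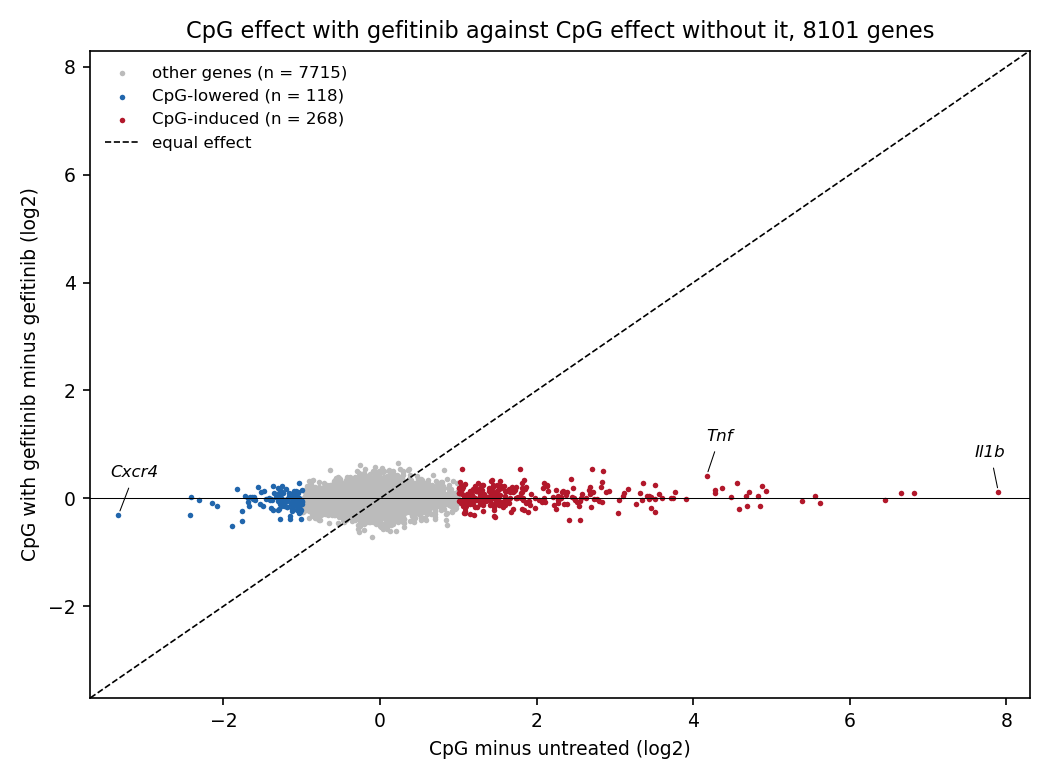
Log2 difference between CpG with gefitinib and gefitinib alone (y axis) against the log2 difference between CpG and untreated cells (x axis) for 8101 genes, with 268 CpG-induced and 118 CpG-lowered genes coloured. Points spread up to 7.90 along the x axis and stay between -0.72 and 0.65 along the y axis, away from the dashed line of equal effects. Of the 268 induced genes 54, among them Il1b at 7.90, were undetected on all 6 gefitinib arrays, so their y values are floor values.

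Among the induced genes, 7 stood higher with both agents at an unadjusted p under 0.05, and 0 of these passed adjustment. Plk2, a polo-like kinase gene, had 6.19, 6.55 and 6.27 with both agents, against 5.91, 5.95 and 5.54 with gefitinib alone. These groups did not overlap, and the difference was 0.54 ± 0.16 (unadjusted p = 0.00448 by limma), which is 19.8% of the response without the drug. Ltb had 7.52, 6.87 and 7.12 with both agents, against 7.05, 6.36 and 6.48 with gefitinib alone, with overlap between groups and a difference of 0.54 ± 0.23. Cth gave 0.55 ± 0.15 and did not overlap, with detection on all 3 arrays with both agents and on 1 of gefitinib alone. Smaller differences belonged to Phf11d (0.29 ± 0.12), the glutaredoxin gene Glrx (0.22 ± 0.10) and Dner (0.29 ± 0.13), beside Tnf. Dner was detected on 1 of 3 arrays of gefitinib alone. The other probe of Phf11d gave -0.03.

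The 6 induced genes on the lower side included antiviral ones. Oas2, which encodes an RNA sensor of the 2-5A synthetase family, had 7.21, 6.87 and 7.11 with both agents, against 7.54, 7.51 and 7.36 with gefitinib alone. Every array with CpG lay below every array without it (-0.41 ± 0.15, unadjusted p = 0.0181 by limma), while CpG alone raised the gene 5.87-fold. Helz2 gave -0.40 ± 0.16, the galectin-3-binding protein gene Lgals3bp -0.33 ± 0.14, the dipeptidase gene Dpep2 -0.31 ± 0.12, the activation marker gene Cd83 -0.30 ± 0.13 and Hap1 -0.27 ± 0.11. For these 6 the sign under gefitinib was opposite to that of the CpG response without it, and none passed adjustment.

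Genes that CpG alone lowers also gave 0 calls under gefitinib. Cxcr4, the chemokine receptor gene with the largest decrease, had 9.13, 9.53 and 9.29 with both agents, against 9.45, 9.70 and 9.73 with gefitinib alone, and 4.84, 5.66 and 4.79 with CpG alone. The gefitinib groups overlapped (-0.31 ± 0.20). St6gal1, a sialyltransferase gene, had 9.84, 9.90 and 9.91 with both agents, against 10.15, 10.24 and 10.18 with gefitinib alone. There the groups did not overlap and the difference was -0.30 ± 0.15, or 12.5% of the decrease with CpG alone. Asb10 gave 0.03 ± 0.18, Cytip -0.04 ± 0.14 and Fndc10 -0.09 ± 0.13. Over all 118 lowered genes, which were all detected on 3 arrays of a gefitinib group, the median difference was -0.05 log2 units and 40 lay above 0, beside a median of 0.00 and 49.5% over all genes. The median share of the decrease left was 4.04%, and the upper end of the interval was under 50% for 107 of them. At an unadjusted p under 0.05, 0 were higher and 5 lower, beside 1.22% and 1.89% of all genes.

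The genes with the smallest unadjusted p over the whole table included Cth as the only one of 12 in the CpG-induced or CpG-lowered sets. On the lower side Lrrc56 had 4.58, 4.60 and 4.58 with both agents, against 5.01, 5.04 and 5.06 with gefitinib alone, the smallest p of all (0.000447 by limma, unadjusted). Lrrc56, Ccdc92b and the sphingosine-1-phosphate receptor gene S1pr5 were detected on 0 of 3 arrays with both agents and on 3 of 3 with gefitinib alone. With the arrays of the undetected group set no lower than their lowest detected signal, the group means were 1.09-, 1.23- and 1.38-fold lower. These figures carry no interval, and all 12 genes were chosen for their p on these same arrays. Brighter genes on that side were the lysosomal mannosidase gene Man2b1 (-0.45 ± 0.11), the selenoprotein gene Selenow (-0.51 ± 0.13) and Cyth1, an exchange factor gene for ARF GTPases (-0.63 ± 0.16). On the higher side the smallest p values belonged to the serine protease gene Prss46 (0.62 ± 0.13), the tyrosine phosphatase gene Ptpn1 (0.46 ± 0.12), Dcaf12, Cth, Dnajc11 and the ribosome biogenesis gene Rrs1 (0.55 ± 0.16). Prss46 was detected on 1 of 3 arrays of gefitinib alone. Dcaf12 and Dnajc11 were detected on 0 arrays of gefitinib alone. Set against the lowest detected signal in the same way, their group means were 1.14- and 1.16-fold higher, again without an interval.

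Read by function, 0 members of any gene list passed the threshold. List medians lay between -0.10 and 0.07, beside a median of 0.00 and quartiles of -0.09 and 0.09 over all genes. The lowest, that of lysosome and autophagy genes, was just beyond the lower quartile. Some measured members were undetected on all 6 arrays, where both groups sit near the floor, which draws a list median toward 0. They were 6 of 16 cytokine, 3 of 10 chemokine, 6 of 35 interferon-stimulated and 7 of 22 macrophage effector genes. NF-kB genes had 2 of 22 and ERK-dependent genes 1 of 24. Inflammatory cytokine genes had a median difference of 0.05 over 16 measured members of 25, with 2 higher (Tnf and Ltb) and 0 lower at an unadjusted p under 0.05, and 6 were undetected on all 6 arrays. At that threshold 1.22% of all genes were higher and 1.89% lower. Of 22 chemokine genes 10 were measured, 4 of them detected on all 6 arrays, and their median was 0.07. Of the 10, 8 lay above 0, beside 49.5% of all genes, but the signs of undetected genes are not measured differences. NF-kB regulators and feedback genes had a median of -0.02 over 22, and 9 lay above 0. Interferon-stimulated genes had a median of 0.00 over 35, with Oas2 as the 1 member under an unadjusted p of 0.05. With CpG alone, the medians of these 4 lists were 2.12, 4.32, 1.54 and 2.27. ERK-dependent early and feedback genes had a median of 0.04 over 24, among them the phosphatase gene Dusp4 (0.24 ± 0.14, with another probe at -0.11) and the stress factor gene Atf3 (0.24 ± 0.14). Dusp6, which encodes a phosphatase for ERK, gave 0.11 ± 0.12, and its probes ranged from -0.02 to 0.17. Macrophage effector genes had a median of 0.00 over 22. The manganese superoxide dismutase gene Sod2 stood at 11.72, 11.86 and 11.77 with both agents, against 11.54, 11.54 and 11.61 with gefitinib alone, without overlap (0.22 ± 0.11).

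Upstream of these targets, the 34 measured Toll-like receptor pathway genes had a median of -0.04, with 2 lower at an unadjusted p under 0.05, beside 1.89% of all genes. These were Ikbkg, the scaffold of the IkB kinase complex (-0.22 ± 0.10), and Tirap, an adaptor gene (-0.24 ± 0.11). The probes of Ikbkg disagreed, from -0.22 to 0.26, and those of Tirap ran from -0.24 to -0.03. Of 7 measured genes of the EGF receptor family, its ligands and sheddases, Rhbdf2, which encodes a partner of the sheddase ADAM17, had 5.09, 5.05 and 5.09 with both agents, against 5.34, 5.54 and 5.57 with gefitinib alone. It did not overlap (-0.40 ± 0.10, unadjusted p = 0.00199 by limma), while CpG alone had raised it 1.79-fold. Rhbdf2 lay little above the lowest detected signals of 4.87 to 4.97, and its difference ran from -0.47 to -0.11 over the alternative settings. Errfi1, the feedback inhibitor of the receptor, gave 0.13 ± 0.11.

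Metabolic and growth lists had small medians of both signs. Over all genes 49.5% lay above 0. Sterol and fatty acid synthesis genes had a median of -0.08, and 25 of 30 lay below 0. Srebf1, the gene of a lipogenic transcription factor, gave -0.59 ± 0.19 and the desaturase gene Scd2 -0.40 ± 0.14, both without overlap. Srebf1 was detected on 2 of 3 arrays with both agents. On the higher side Idi1, an isomerase gene of the isoprenoid pathway, gave 0.39 ± 0.16 and the sterol reductase gene Tm7sf2 0.36 ± 0.16, also without overlap and with an unadjusted p under 0.05, and both were named after their values were seen. The cholesterol synthesis gene Hmgcs1 gave -0.03 ± 0.22. Lysosome and autophagy genes had a median of -0.10 with 26 of 34 below 0, among them the saposin precursor gene Psap (-0.33 ± 0.11) and Ctsa (-0.28 ± 0.16). DNA replication genes had a median of 0.04 with 31 of 40 above 0, as for Cdc6 (0.21 ± 0.11) and Rrm2 (0.21 ± 0.13). Mitosis genes had a median of 0.03 over 30, with the kinetochore gene Spc25 at 0.34 ± 0.13 and the kinase gene Aurka at 0.17 ± 0.12. Medians between -0.06 and 0.02 were found for ATF4 and amino acid response genes (0.01 over 39), unfolded protein response genes (-0.06 over 18) and NRF2 targets and redox genes (0.00 over 24). The same held for glycolysis and hypoxia genes (0.02 over 24) and ribosomal protein genes (-0.02 over 45). Slc38a2, an amino acid transporter gene, gave -0.33 ± 0.10, but its probes ranged from -0.33 to -0.08. In the antioxidant list the glutathione peroxidase gene Gpx1 gave -0.26 ± 0.10. CpG alone had lowered Scd2 (-0.78), Psap (-0.85) and Gpx1 (-0.32) past the threshold, by less than 2-fold. Cdc6, which it also lowered (-0.41), had the opposite sign under gefitinib.

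**Figure D4:**
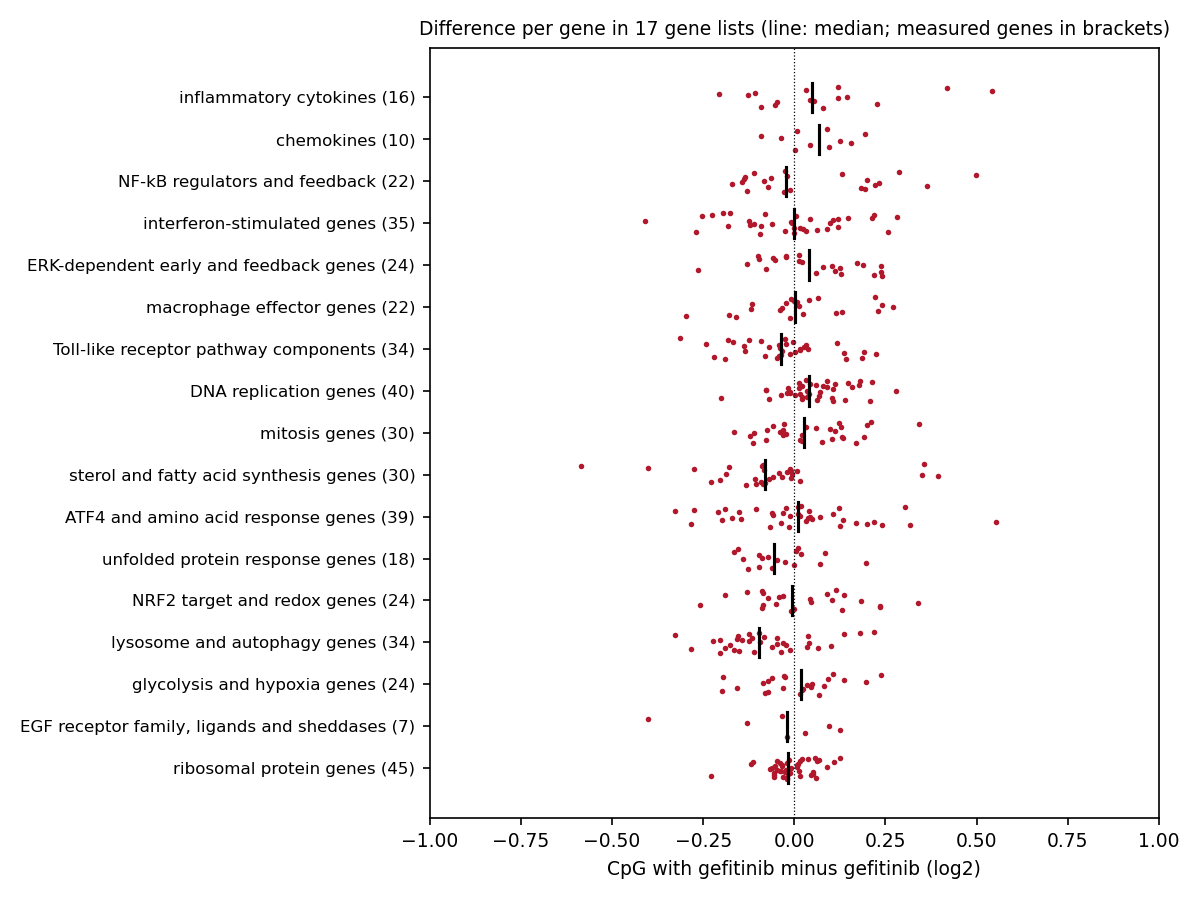
Log2 difference between CpG with gefitinib and gefitinib alone (x axis) for each measured gene of 17 lists (rows), with list medians as lines. Medians lie between -0.10 and 0.07, and single genes between -0.59 and 0.55. Genes undetected on all 6 arrays are included.

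Most measured markers of the labelled cell type were detected in both groups. Of 14 macrophage marker genes 11 had a probe and 8 were measured, 7 of them detected on all 6 arrays and 1 on 0 of the 6. Csf1r, Cd68, Fcer1g, Mpeg1, Mrc1 and Msr1 were not measured. The median difference of the 8 was -0.09, and 7 lay below 0, beside 49.5% of all genes above 0. Cd14, the co-receptor gene, gave -0.19 ± 0.09. Of 14 fibroblast and epithelial markers Cdh1 alone was measured (-0.09 ± 0.19), and of 18 lymphocyte and granulocyte markers 4 were, with 1 detected on all 6 arrays.

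The comparison was repeated within same-numbered replicates. Deviations of arrays from their group means were correlated between same-numbered arrays with and without CpG (0.24, 0.28 and 0.24 for numbers 1, 2 and 3), and between -0.20 and -0.04 for different numbers. All 3 differences were above 0 for 1203 genes (14.9%) and below 0 for 1354 (16.7%). For the 186 measured induced genes 42 and 26 were so, and the median difference was 0.01, 0.03 and 0.08 for the 3 numbers. For the 118 lowered genes 7 and 30 were so, with medians of -0.03, -0.03 and -0.12. With the replicate number as a block, 0 of the 8101 genes passed the threshold (lowest adjusted p = 0.891 by limma). The count at an unadjusted p under 0.05 was then 159 higher (1.96%) and 229 lower (2.83%), and with the 6 arrays alone it was 310 and 355, again with 0 past the threshold.

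Within numbers 1, 2 and 3, Tnf differed by 0.67, 0.20 and 0.39 log2 units, and Nfkbia by 0.31, 0.34 and 0.45. Ltb differed by 0.47, 0.52 and 0.64, and Plk2 by 0.28, 0.60 and 0.73. All 3 pairs had the sign of the response without the drug, but Tnf, Ltb and Plk2 were chosen for their p on these same arrays, so the shared sign is a description. Oas2 differed by -0.33, -0.64 and -0.26, and Helz2 by -0.46, -0.38 and -0.37, against it, and were chosen in the same way. Ccl3 (0.16, -0.03 and 0.00) and Nfkbiz (-0.30, -0.27 and 0.14) had no common sign. The replicate block moved the unadjusted p by limma from 0.0763 to 0.0298 for Nfkbia, from 0.0331 to 0.00865 for Ltb and from 0.0127 to 0.0155 for Tnf. On the lower side it went from 0.0181 to 0.00634 for Oas2 and from 0.0224 to 0.00218 for Helz2. None of these passed adjustment. Standard errors, intervals and shares in the text are from the fit without the block.

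**Figure D5:**
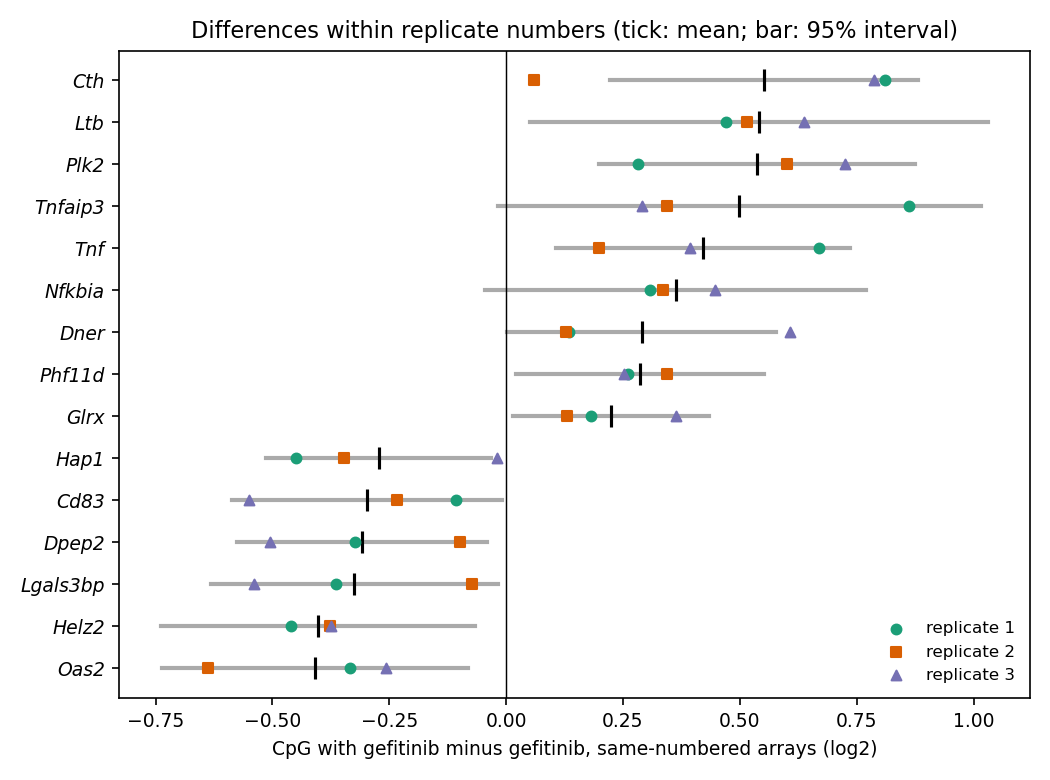
Log2 difference between CpG with gefitinib and gefitinib alone within each replicate number (symbols) for 13 CpG-induced genes with an unadjusted p under 0.05 and for Nfkbia and Tnfaip3, with means as ticks and 95% intervals of the fit as bars. The 3 differences of each gene share a sign, between 0.06 and 0.86 above 0 and between -0.64 and -0.02 below it.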

How the data were processed

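Bead signals of 25697 probes on 12 arrays (4 groups of 3) were read from the deposited table, in which they are intensity values on a linear scale, not normalized per the file headers. Per the file headers, every signal has its own p-value of detection. GenomeStudio 2010.2 is named in the submitters' processing notes. The authors' deposited value table holds intensity values that share one set of quantiles across arrays, by a normalization that is not given in the sources used here, and served as an alternative. Arrays give no read depth, and their number limits the precision. Between 10705 and 11181 probes were detected per array.

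The neqc function of limma 3.58.1 (R 4.3.3) gave log2 values, by normexp correction on the detection p-values, an offset of 16 and quantile normalization. A probe was kept if it was detected (p under 0.05) on 3 or more arrays (11977, of which 11283 had a symbol). Symbols came from the platform's annotation, updated through gene identifiers (1719 probes were not listed there). The probe with the highest mean stood for its gene, which left 8101 genes. A model with 4 groups was fitted to 12 arrays (lmFit, eBayes, 8 residual degrees of freedom), and p-values were adjusted by Benjamini-Hochberg over all genes. The code was tested on simulated data.

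Same-numbered arrays of the 2 gefitinib groups deviated together (correlations of 0.24, 0.28 and 0.24), so the numbers were taken to pair them, from the data, and a fit with the replicate block was made. Alternatives were other normalizations, filters, probe rules, array sets and weights, and leaving out arrays. Slides are not named in the headers, so no slide block was run. Members, lists and tests were chosen with earlier results of these data known. Named genes were, by rule, the 6 with the smallest p in each direction, the 10 most induced and 5 most lowered by CpG alone, induced genes with an unadjusted p under 0.05, 24 fixed genes, and up to 2 members of each list with the smallest p.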

Additional observations from a re-analysis of the deposited data

Results flagged for a closer look

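The CpG effect differed between cells with and without gefitinib, by the interaction term of the fit (limma, adjusted p under 0.05), for 1000 of the 8101 genes. A negative value, in log2 units, means a smaller increase or a larger decrease with CpG under gefitinib than without it. For genes detected on no gefitinib array these are fitted values and not bounds. Among those listed below they are Il1b, Cxcl2, Ccl7, Csf3, Phlda1, Il6, Ifnb1, Ptgs2 and Irf7, which passed the filter only through the arrays of CpG alone. Many of the genes below were named for a large CpG effect without the drug. That effect is a term of the interaction, so their passing supports nothing by itself.

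Among chemokine and cytokine genes the interaction was largest in Il1b (-7.78), Cxcl2 (-6.73), Ccl2 (-6.57), Ccl7 (-6.48) and Csf3 (-5.72). It was also past the threshold in Il1rn (-4.78), Ccl3 (-4.63), Cxcl10 (-4.17), Ccl4 (-4.12), Tnf (-3.75), Il6 (-3.37), Ifnb1 (-3.24) and Ltb (-1.25). Effector and receptor genes followed with Saa3 (-5.52), Hcar2 (-4.65), Ptgs2 (-2.31), Cd83 (-1.45), Sod2 (-1.36) and Cd14 (-1.15).

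NF-kB and MAP kinase feedback genes gave Phlda1 (-5.45), Nfkbiz (-5.00), Socs3 (-4.83), Tnfaip3 (-2.34), Nfkbia (-2.08), Dusp4 (-1.89), Errfi1 (-1.57), Atf3 (-1.20) and Dusp6 (-0.79). Interferon-stimulated genes gave Isg15 (-4.17), Irf7 (-3.64), Oas2 (-2.96), Helz2 (-2.82), Samd9l (-2.14), Phf11d (-1.81) and Lgals3bp (-1.78). Other genes with a negative interaction were Plk2 (-2.18), Glrx (-1.90), Dpep2 (-1.51), Hap1 (-1.35), Rhbdf2 (-1.24), Dner (-0.96) and Tirap (-0.71).

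The interaction was positive in genes that CpG alone lowered, namely Cxcr4 (3.04), Asb10 (2.44), Cytip (2.28), St6gal1 (2.13) and Fndc10 (2.06). Further positive values were found for Cdc6 (0.62), Prss46 (0.87) and Rpl22 (0.90). Groups of 3 arrays are too small for a test of single outlying arrays, and none was run.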

How the results depend on the processing

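The count of genes that passed the threshold in CpG with gefitinib against gefitinib was 0 in both directions under all 19 alternatives, which included an added test of every kept probe by itself, chosen after seeing the data. The share of genes at an unadjusted p under 0.05 ran from 1.06% with median scaling to 8.21% with the replicate block in the 6 arrays alone. The lowest adjusted p of any alternative was 0.345, without array 1 of gefitinib alone. The replicate block changed no call: 0 genes passed in 12 arrays and 0 in 6. The median difference of the 186 measured CpG-induced genes lay between 0.01 and 0.06. The share of their response left lay between 0.76% and 3.11%, and leaving out single arrays gave 0.86% to 3.11%. In every alternative this share was set over the CpG response of the main fit. The 0.76% came from the deposited normalized values without normexp, so it is not a share of the response in those values. The median of the 118 lowered genes lay between -0.06 and -0.02. Counts that define the CpG response without the drug moved more. The induced genes were 150 and the lowered genes 29 in the deposited normalized values without normexp, and 175 genes were induced when detection on all 6 gefitinib arrays was required, which leaves fewer genes to test. The interaction was called for 534 genes under median scaling, and the cause was not tested. Of 83 genes in the naming rule, 14 changed sign under at least 1 alternative, none with a difference beyond 0.23 log2 units. Signs of differences that were not called should not be read as directions.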
